A study of Mus musculus with 4 samples.

Results

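The genes described here are the mouse translation initiation and elongation factors, taken by name from RNA-seq of whole small intestine. A gene was a member if its symbol began with Eif or Eef and a digit and its normalized count was at least 10 in at least 2 of the 4 libraries. Of 73 rows with such a name, 68 met that level, out of 16415 genes in the table that met it. The members were 64 protein-coding genes and 4 processed pseudogenes. The study compared pups at postnatal day 8. The mice of the 2 Lats1/2 KO libraries carry the label VilCre+; Lats1/2-/-, and in them the Villin promoter drives Cre in the intestinal epithelium. The 2 control libraries are described by the design text as Lats1/2 f/f mice without Cre, while their genotype label reads VilCre-; Lats1/2-/-. By the design text, floxed Lats1 and Lats2 alleles are thus shared by both groups. Lats1 and Lats2 encode the Hippo pathway kinases that restrain the co-activators YAP and TAZ. No cell type was sorted according to the labels, so each library mixes epithelium with muscle, stroma, nerve, vessel and blood cells.

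Translation begins when the small ribosomal subunit, carrying eIF2 with GTP and the initiator tRNA, is loaded onto an mRNA with the help of eIF3 and of the cap-binding assembly eIF4F. After the start codon is found, eIF2 leaves bound to GDP and must be recharged by its exchange factor, eIF2B, a step that stress kinases block by phosphorylating eIF2. The elongation factors eEF1 and eEF2 then deliver aminoacyl-tRNAs and move the ribosome along the message.

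Recovered depth was 30517967 and 32361940 reads in the Lats1/2 KO libraries and 27811313 and 25135964 reads in the control libraries. Levels below are normalized counts, with replicate 1 of a group before replicate 2. Lats1, a targeted gene, had 751 and 661 in Lats1/2 KO against 2316 and 2560 in controls, which separates the groups as labelled. Lats2, the other targeted gene, had 295 and 254 in Lats1/2 KO against 273 and 287 in controls, with overlapping groups. It did not pass (log2 change -0.03, adjusted p = 0.868 by limma), so its whole-gene count did not show the loss of Lats2. Single exons were not examined. The 11 listed epithelial markers summed to 207850 and 209825 in Lats1/2 KO against 154021 and 144016 in controls. Of these, 5 were higher (Krt8, Krt18, Krt19, Krt20 and Cldn3), Cdx1 was lower, and Epcam, Vil1, Cdh1 and Cdx2 were among those that did not pass. Of 6 fibroblast markers 3 were lower and 0 higher, with sums of 17260 and 15400 in Lats1/2 KO against 21030 and 19310 in controls. The 9 nerve and glia markers summed to 3553 and 3435 in Lats1/2 KO against 6812 and 5927 in controls, with 2 lower and 0 higher. The leukocyte list summed to 7404 and 10053 in Lats1/2 KO against 12782 and 12577 in controls, with 2 of 6 tested markers lower and 0 higher. Of 5 endothelial markers 1 was lower, with sums of 3544 and 3343 in Lats1/2 KO against 3892 and 4630 in controls. The 8 smooth muscle, 5 tested erythroid and 3 tested striated muscle markers had 0 calls. In bulk tissue, fewer cells of a type and less RNA per cell cannot be told apart, and the part of these shifts in the results below was not tested. Control replicate 1 stood apart in its sex-linked genes. Xist, the RNA of the inactive X, had 17821 and 17034 in Lats1/2 KO against 64.2 and 17276 in controls, and the Y-linked gene Ddx3y had 5.55 and 4.52 in Lats1/2 KO against 1906 and 1.14 in controls.

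By limma on log2(normalized count + 1), with Benjamini-Hochberg adjustment over all tested genes and a threshold of 0.05, 24 of the 68 members were higher in the Lats1/2 KO intestine, 0 were lower and 44 did not pass. Calls in either direction made up 27.5% of all tested genes by limma, 27.8% by edgeR and 23.6% by DESeq2, and edgeR called 24 members and DESeq2 22. By limma 35.3% of members were called higher, against 15.2% of all tested genes called higher and 12.3% called lower. The members' median log2 change was 0.24, against -0.00 over all tested genes, and 57 of 68 had a positive log2 change, against 49.8% of all tested genes. The libraries of the groups did not overlap in 51 members with higher and 6 with lower values in Lats1/2 KO, where the shares over all tested genes were 34.9% and 33.4%. The changes were small, with a largest of 1.84-fold (folds are the fitted log2 changes on a linear scale), while the middle 90% of all tested genes spanned log2 changes of -1.11 to 1.01. Members were abundant, with a median level at percentile 81.6 of tested genes, and their median SE was 0.08 on the log2 scale against 0.13 over all tested genes. Together they took 1.30% and 1.28% of all reads in the Lats1/2 KO libraries and 1.14% and 1.10% in the control libraries. The authors' deposited table, at an adjusted p under 0.05, calls 22 members higher and 0 lower, where it calls 23% of its tested genes in either direction.

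The count fell most when a Lats1/2 KO library was left out. The members' median log2 change was 0.26 and 0.20 without Lats1/2 KO replicates 1 and 2, against 0.24 with every library. Those 2 fits take their residual spread from the control libraries alone. Without Lats1/2 KO replicate 1 there were 7 members called and without Lats1/2 KO replicate 2 there were 6, while the calls over all tested genes were 1894 and 1869, against 4508 with every library. Without control replicate 1, the library with high Y-linked levels, 23 members were higher and 0 lower. Without control replicate 2, 22 were higher and 1 lower. The calls of Eif2s2, Eif1a, Eif3c and Eif4ebp1 were kept in all 13 alternative analyses.

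**Figure D1:**
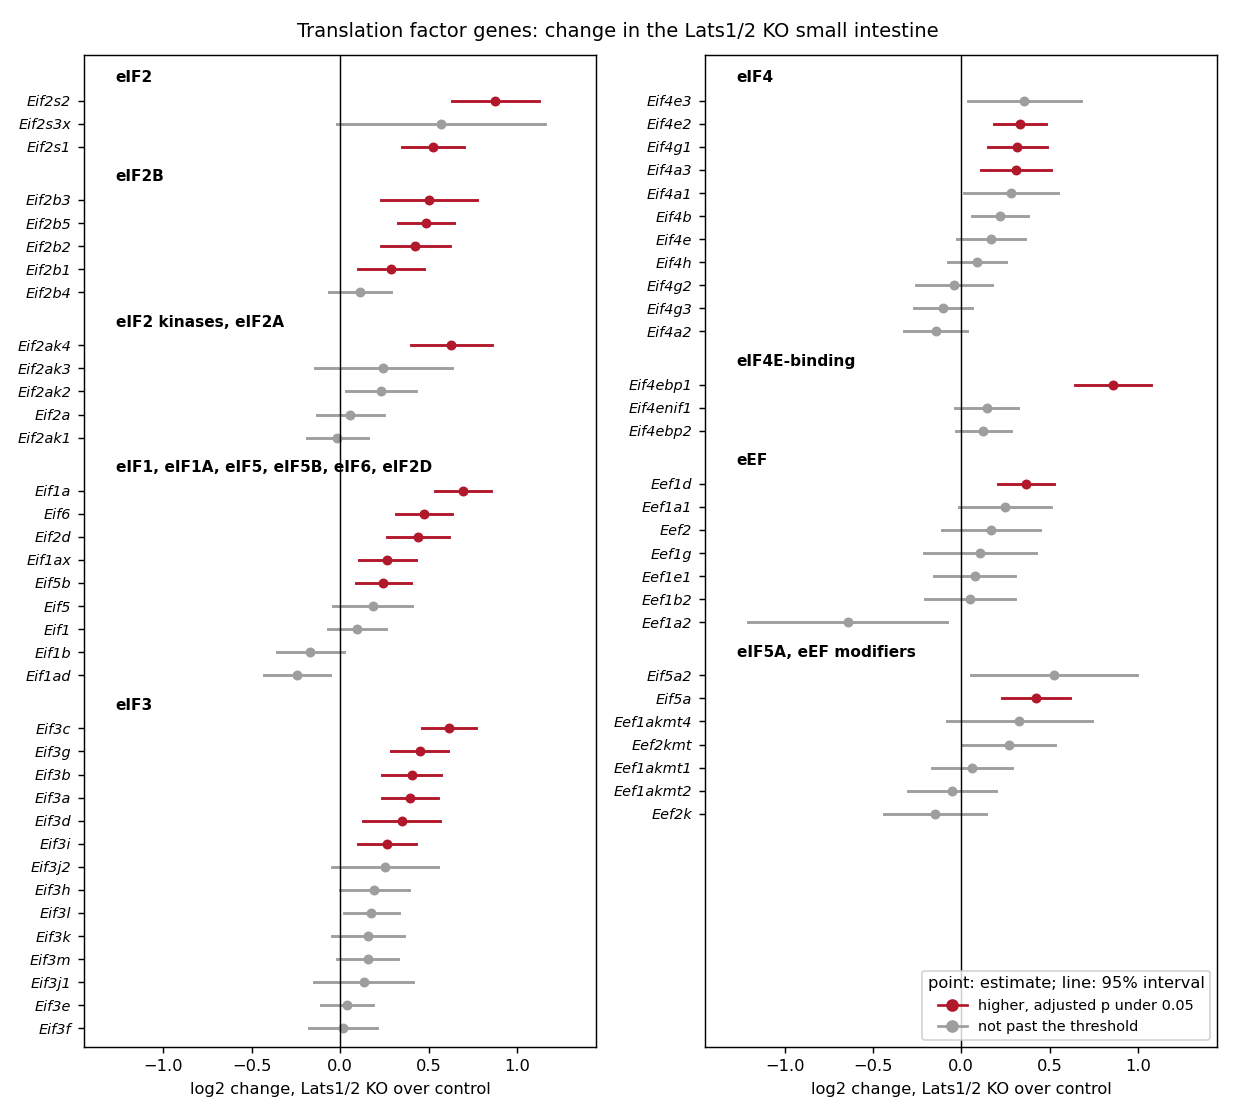
Log2 change of each protein-coding translation factor gene, Lats1/2 KO over control, by complex, with its 95% interval (2 libraries per group). Of these 64 genes, 24 passed the threshold, all with higher values in Lats1/2 KO, led by Eif2s2, Eif4ebp1 and Eif1a.

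Promoter sequences came from RefSeq windows of 250 bases before to 50 bases from each annotated start on GRCm38.p6, found for 51 of the 68 members. Printed are 2 called members with large changes and a single window, Eif2s2 (chr2:154892857-154893156, minus strand) and Eif3c (chr7:126566317-126566616, minus strand). They stand beside the called members with a single window that hold the E-box CACGTG, the letters bound by MYC-type factors, which are Eif3a (chr19:60790644-60790943, minus strand) and Eif4g1 (chr16:20672477-20672776, plus strand). Each runs 5′ to 3′ on its gene's strand, and capitals mark the E-box.
Eif2s2: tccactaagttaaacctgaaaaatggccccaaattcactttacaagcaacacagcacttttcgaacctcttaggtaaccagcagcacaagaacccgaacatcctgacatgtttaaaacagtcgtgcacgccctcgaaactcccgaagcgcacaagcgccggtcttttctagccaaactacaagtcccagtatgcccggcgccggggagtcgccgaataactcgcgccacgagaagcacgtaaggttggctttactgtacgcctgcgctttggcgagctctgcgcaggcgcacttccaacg
Eif3c: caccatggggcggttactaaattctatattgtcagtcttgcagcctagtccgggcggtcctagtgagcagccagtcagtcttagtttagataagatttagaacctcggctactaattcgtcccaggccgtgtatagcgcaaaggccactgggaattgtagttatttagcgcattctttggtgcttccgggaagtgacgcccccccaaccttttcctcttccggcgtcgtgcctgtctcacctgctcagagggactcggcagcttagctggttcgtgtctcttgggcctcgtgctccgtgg
Eif3a: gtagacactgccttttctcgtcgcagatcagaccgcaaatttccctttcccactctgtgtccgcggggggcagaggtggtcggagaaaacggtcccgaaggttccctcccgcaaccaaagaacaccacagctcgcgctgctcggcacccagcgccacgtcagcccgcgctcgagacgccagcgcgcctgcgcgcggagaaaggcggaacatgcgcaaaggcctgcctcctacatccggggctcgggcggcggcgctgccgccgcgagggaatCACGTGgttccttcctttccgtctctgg
Eif4g1: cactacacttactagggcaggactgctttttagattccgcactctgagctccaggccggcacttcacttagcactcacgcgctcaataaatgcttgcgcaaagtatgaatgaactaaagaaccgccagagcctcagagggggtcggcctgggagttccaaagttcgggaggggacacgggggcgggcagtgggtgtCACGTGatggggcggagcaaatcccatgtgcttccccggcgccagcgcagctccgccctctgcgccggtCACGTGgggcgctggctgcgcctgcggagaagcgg

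Counted from the RefSeq start, the first base of the E-box lay at 23 in Eif3a and at -54 and 16 in Eif4g1. GENCODE places other outer starts for these genes. Eif3a begins there at 60790658, inside its printed window and after its E-box, and Eif4g1 at 20668313, before its printed window. CACGTG occurred in the windows of 13 of 51 members (25.5%), against 8.09% of the 27025 genes with a window. Those 27025 genes were not limited to the tested ones, so they include genes of low level, unlike the members. A gene counted if any of its windows held the motif, and 7 members had more than 1 window. Among members called higher it was in 3 of 18 (16.7%), the other being Eif5a. Among members that did not pass it was in 10 of 33 (30.3%), Eef2, Eif4e and Eif4a1 among them. GGAATG, the core of TEAD sites, was found in 5 of 51 members (9.80%), of which Eif2b5 and Eif3b were called higher, against 16.6% of all genes. TGATGNAA, part of the element bound by ATF4, was in 2 of 51 members (3.92%) and 0 of the 18 higher ones, against 4.51% of all genes. Both strands were searched, and the printed windows hold neither GGAATG nor TGATGNAA, so no motif overlaps another there. A match describes these letters only, since no binding was measured.

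eIF2, the trimer that brings the initiator tRNA, was higher in its beta and alpha subunit genes. Eif2s2, the beta subunit gene (ENSMUSG00000074656, chromosome 2, 154871410 to 154892935, minus strand of GRCm38), had 4555 and 4003 normalized counts in the Lats1/2 KO libraries against 2175 and 2478 in the control libraries. Both Lats1/2 KO libraries lay above both controls. Its mean was 4279 ± 390.2 in Lats1/2 KO and 2326 ± 214 in controls (SD, n = 2 each), a 1.84-fold rise (log2 change 0.88 ± 0.10 SE, adjusted p = 0.00344 by limma), the largest among the members. Eif2s1, the alpha subunit gene, whose protein carries the site that stress kinases phosphorylate (chromosome 12, 78861819 to 78887010), had 2711 and 2565 in Lats1/2 KO against 1775 and 1893 in controls. It rose 1.44-fold (log2 change 0.52 ± 0.07 SE, adjusted p = 0.00578 by limma) with no overlap of the groups, and its adjusted p was 0.0519 without Lats1/2 KO replicate 1. The ratio of the normalized counts of Eif2s2 to those of Eif2s1 was 1.68 and 1.56 in Lats1/2 KO and 1.23 and 1.31 in controls. Of the 50-base stretches in Eif2s2 transcripts, 10.3% also occur in other genes, mostly in the gene model Gm9892.

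The gamma subunit is encoded on both sex chromosomes in mice. Eif2s3x (chromosome X, 94188707 to 94212862) had 1043 and 1021 in Lats1/2 KO against 536 and 899.5 in controls, and Eif2s3y (chromosome Y, 1010543 to 1028847) had 9.25 and 2.71 in Lats1/2 KO against 2336 and 3.43 in controls. Control replicate 1 had the lowest Eif2s3x and the only high Eif2s3y, and Eif2s3y, with 1 library at or above 10, is no member. Eif2s3x did not pass (log2 change 0.57, 95% interval -0.02 to 1.16, adjusted p = 0.129 by limma). It passed without control replicate 2, which leaves control replicate 1 as the sole control (log2 change 0.94, adjusted p = 0.00246 by limma). The 2 genes summed to 1052 and 1024 in Lats1/2 KO and 2872 and 903 in controls. The authors' deposited table lists Eif2s3y at -0.59 (log2) with 0.0198 as its adjusted p, where control replicate 1 is the one library with a high count. Of the 50-base stretches in Eif2s3x transcripts, 34.6% also occur in the gene model Gm2223, which had 16.7 and 24.4 in Lats1/2 KO against 7.25 and 14.9 in controls.

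**Figure D2:**
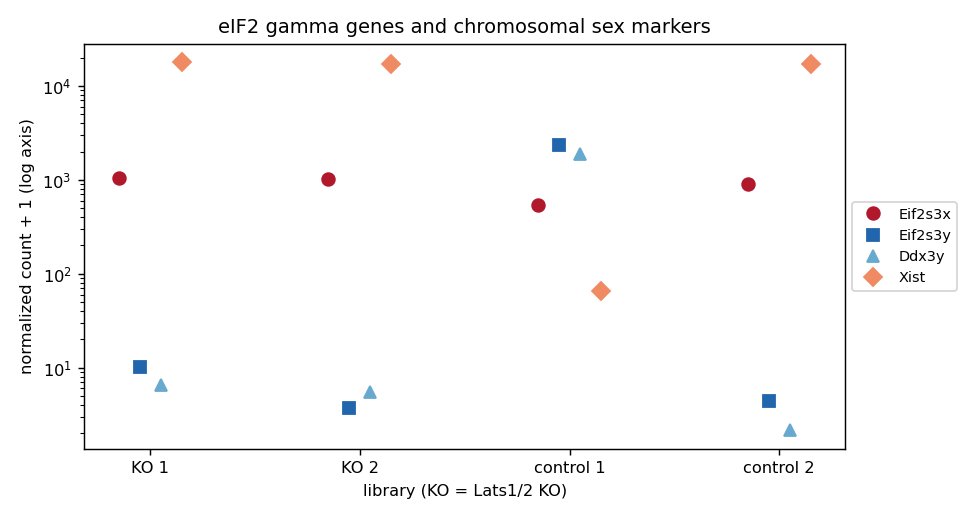
Normalized counts plus 1, on a log axis, of the X- and Y-linked genes for eIF2 gamma and of 2 markers of chromosomal sex, Ddx3y and Xist, in each library. Eif2s3y and Ddx3y are high and Xist is low in control replicate 1, and the other 3 libraries show the reverse.

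eIF2B, the exchange factor that recharges eIF2 with GTP, was higher in 4 of its 5 subunit genes, beside 15.2% of all tested genes. Its median log2 change was 0.42. Eif2b5, the catalytic epsilon subunit gene (ENSMUSG00000003235, chromosome 16, 20498817 to 20509323), had 2240 and 2222 in Lats1/2 KO against 1628 and 1562 in controls. It rose 1.40-fold (log2 change 0.48 ± 0.06 SE, adjusted p = 0.00546 by limma). Eif2b3, gamma, the partner of epsilon in the catalytic part, had 349.7 and 329.8 in Lats1/2 KO against 232 and 248 in controls and rose 1.41-fold (adjusted p = 0.0245 by limma). Of the regulatory subunits, Eif2b2, beta, had 1189 and 1212 in Lats1/2 KO against 854 and 936 in controls and rose 1.34-fold (adjusted p = 0.0151 by limma). Eif2b1, alpha, had 1131 and 1118 in Lats1/2 KO against 953 and 889 in controls and rose 1.22-fold (adjusted p = 0.0394 by limma). Eif2b4, delta, had 1002 and 1019 in Lats1/2 KO against 920.2 and 952 in controls, with a log2 change of 0.11 and a 95% interval of -0.06 to 0.29 (adjusted p = 0.291 by limma). In each of the 5 genes both Lats1/2 KO libraries lay above both controls, as they did in 34.9% of all tested genes. Without Lats1/2 KO replicate 1, 0 subunits passed, with adjusted p by limma between 0.0508 (Eif2b5) and 0.179 (Eif2b1) for the 4 called genes, and without Lats1/2 KO replicate 2 only Eif2b5 passed. Eif2b3 missed the threshold without control replicate 1 (adjusted p = 0.0713), and Eif2b1 did so without control replicate 2 (0.0969), with no filter on low values (0.0771) and by DESeq2 (0.0902).

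Of the 4 kinase genes for eIF2 alpha, Eif2ak4 passed, beside 15.2% of all tested genes called higher. Eif2ak4, which encodes the amino acid sensor GCN2 (ENSMUSG00000005102, chromosome 2, 118388618 to 118475234), had 682 and 736 in Lats1/2 KO against 442 and 474 in controls. It rose 1.55-fold (log2 change 0.63 ± 0.09 SE, adjusted p = 0.00733 by limma, and 0.0606 without Lats1/2 KO replicate 2). Eif2ak2, the double-stranded RNA sensor PKR, had 3681 and 3825 in Lats1/2 KO against 3018 and 3398 in controls (log2 change 0.23, adjusted p = 0.0870 by limma), and it passed without control replicate 2 (0.0307). Eif2ak3, the endoplasmic reticulum stress sensor PERK, had 1670 and 2050 in Lats1/2 KO against 1374 and 1777 in controls, and its groups overlapped (log2 change 0.24, 95% interval -0.14 to 0.63). Eif2ak1, the heme-regulated kinase HRI, had 1874 and 1929 in Lats1/2 KO against 1993 and 1854 in controls, also with overlap (95% interval of the log2 change -0.19 to 0.16). Whether the change of Eif2ak4 differs from those of the other kinases was not tested. Eif2a, an initiation factor distinct from the alpha subunit of eIF2, had 2124 and 1927 in Lats1/2 KO against 1990 and 1900 in controls, with overlapping groups.

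Of 9 genes for start codon selection, subunit joining and related steps, 5 were higher, beside 15.2% of all tested genes. The 9 genes had a median log2 change of 0.24, and the authors' deposited table calls 3 of them higher. Eif1a, which encodes an eIF1A that works with eIF1 in scanning (ENSMUSG00000057561, chromosome 18, 46597701 to 46616456), had 4551 and 4731 normalized counts in Lats1/2 KO against 2924 and 2803 in controls. The groups lay far apart relative to their spread. Its mean was 4641 ± 127 in Lats1/2 KO and 2863 ± 86.0 in controls (SD, n = 2 each), a 1.62-fold rise (log2 change 0.70 ± 0.06 SE, adjusted p = 0.00190 by limma). Its X-linked paralog Eif1ax had 2282 and 2244 in Lats1/2 KO against 1832 and 1929 in controls and rose 1.20-fold (adjusted p = 0.0329 by limma). Eif1ax missed the threshold without Lats1/2 KO replicate 1 (0.171), without Lats1/2 KO replicate 2 (0.151), without control replicate 1 (0.0740), with no filter on low values (0.0682) and by DESeq2 (0.0512). The ratio of Eif1ax to Eif1a counts was 0.50 and 0.47 in Lats1/2 KO and 0.63 and 0.69 in controls.

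Eif6, which keeps the large ribosomal subunit from joining too early (chromosome 2, 155819832 to 155826925), had 4630 and 4910 in Lats1/2 KO against 3419 and 3443 in controls. It rose 1.39-fold (log2 change 0.47 ± 0.06 SE, adjusted p = 0.00581 by limma, and 0.0551 without Lats1/2 KO replicate 2). Eif2d, which can place tRNA on the ribosome independently of eIF2, had 1272 and 1308 in Lats1/2 KO against 931 and 972 in controls and rose 1.36-fold (adjusted p = 0.00969 by limma, 0.0636 and 0.0767 without Lats1/2 KO replicates 1 and 2). Eif5b, the GTPase of subunit joining, had 3546 and 3548 in Lats1/2 KO against 3074 and 2923 in controls and rose 1.18-fold (adjusted p = 0.0389 by limma). It missed the threshold without Lats1/2 KO replicate 1 (0.178) or 2 (0.183), without control replicate 2 (0.0838), with no filter on low values (0.0765) and by DESeq2 (0.0564), and 16.9% of its exon bases overlap Rev1 on the other strand. Eif5, the activator of the eIF2 GTPase and the gene of this group with the highest count, had 12597 and 13219 in Lats1/2 KO against 10619 and 12166 in controls (log2 change 0.18, adjusted p = 0.182 by limma). Eif1 had a log2 change of 0.10 and its paralog Eif1b of -0.17, and neither passed. Eif1ad, named for an eIF1A-like domain, had 4156 and 4239 in Lats1/2 KO against 5236 and 4716 in controls, with a log2 change of -0.24 that missed the threshold (adjusted p = 0.0622 by limma). It was the 1 lower member without control replicate 2 (0.0262).

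**Figure D3:**
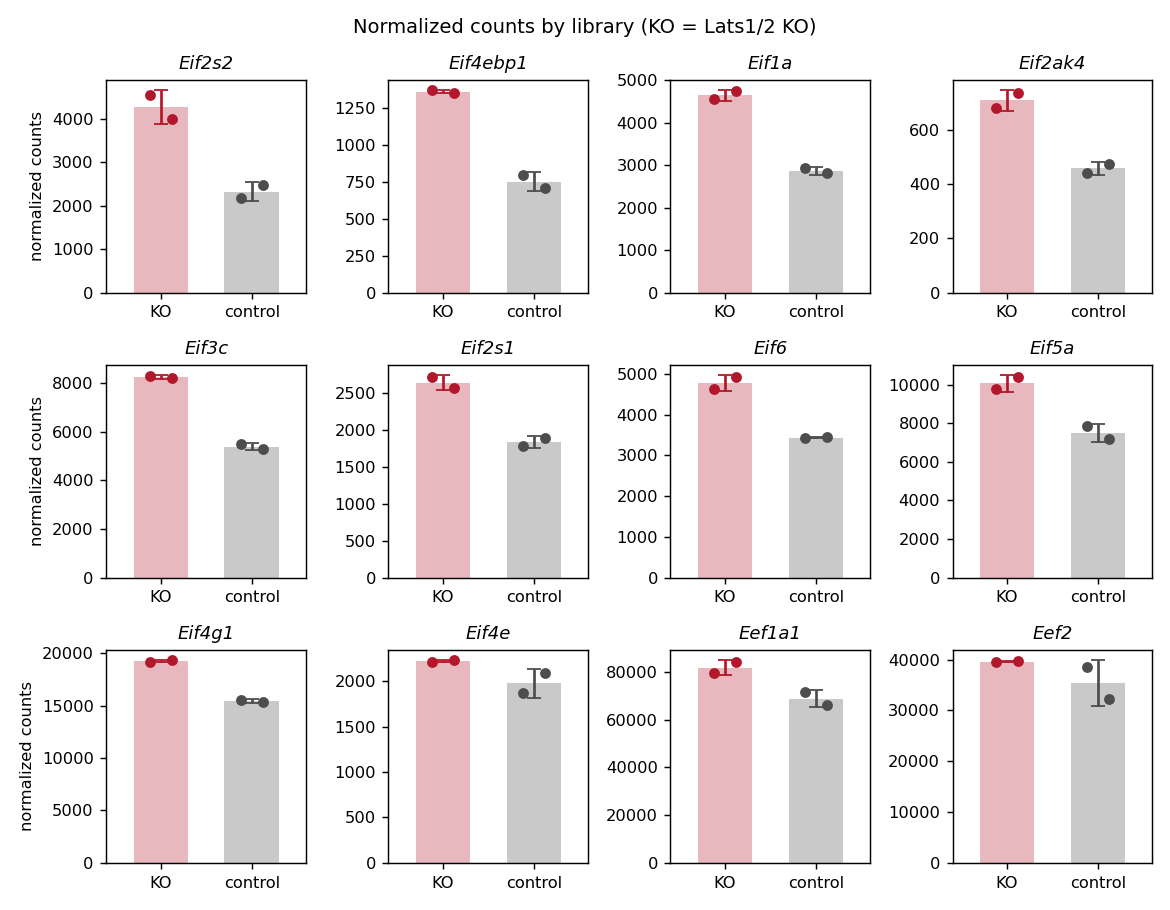
Normalized counts of 12 translation factor genes in the Lats1/2 KO and control libraries. Points are libraries, bars are means of 2 libraries and error bars are SD. In the panel of Eif2s2 the Lats1/2 KO mean is 4279 and the control mean 2326, whereas Eif4e, Eef1a1 and Eef2 show smaller gaps and did not pass the test.

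eIF3, the scaffold of many subunits that holds the small ribosomal subunit, was higher in 6 of 14 genes, beside 15.2% of all tested genes. All 14 had a positive log2 change, against 49.8% of all tested genes, with a median of 0.22. Eif3c (ENSMUSG00000030738, chromosome 7, 126546455 to 126566411) had 8308 and 8199 in Lats1/2 KO against 5494 and 5286 in controls. It rose 1.53-fold (log2 change 0.61 ± 0.06 SE, adjusted p = 0.00247 by limma), and 7.25% of its 50-base stretches are shared with the gene model Gm11224. Eif3g had 2115 and 2200 in Lats1/2 KO against 1604 and 1556 in controls and rose 1.37-fold. The groups of both genes did not overlap. Eif3a, the largest subunit, had 9315 and 8915 in Lats1/2 KO against 6998 and 6866 in controls and rose 1.31-fold. Eif3b, which with Eif3a forms the core that the others join, had 5408 and 5455 in Lats1/2 KO against 4268 and 3947 in controls and rose 1.32-fold. Eif3i, a partner of Eif3b and Eif3g, had 2862 and 2834 in Lats1/2 KO against 2449 and 2294 in controls and rose 1.20-fold. Eif3d, a subunit that can bind the mRNA cap, had 1677 and 1580 in Lats1/2 KO against 1362 and 1201 in controls and rose 1.27-fold. Adjusted p by limma for these 5 genes was 0.00712 (Eif3g) to 0.0370 (Eif3d). Some 43.3% of the exon bases of Eif3d overlap the antisense gene Gm17638, which had 10.2 and 6.33 in Lats1/2 KO against 8.28 and 3.43 in controls.

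The subunit genes that did not pass were Eif3e, Eif3f, Eif3h, Eif3k, Eif3l, Eif3m, Eif3j1 and Eif3j2. Eif3e had 3768 and 3775 in Lats1/2 KO against 3723 and 3621 in controls, with a log2 change of 0.04 and a 95% interval of -0.11 to 0.19. Eif3f had 3890 and 4247 in Lats1/2 KO against 4178 and 3870 in controls, with overlapping groups and an interval of -0.18 to 0.21. Eif3h, Eif3k, Eif3l and Eif3m had log2 changes between 0.15 (Eif3m) and 0.19 (Eif3h). In each, both Lats1/2 KO libraries lay above both controls, as in 34.9% of all tested genes. Eif3j1 and Eif3j2 are uncertain, since 90.8% of the 50-base stretches of Eif3j2 occur in Eif3j1. The subunits were also grouped, after their values were seen, by whether budding yeast has them in its core eIF3. The 5 shared ones (Eif3a, Eif3b, Eif3c, Eif3g and Eif3i) were all called, with a median log2 change of 0.40, and Eif3d was the one called among the other 9, whose median was 0.16. The shared ones also had a higher median level, 4769 against 2406 normalized counts, and a lower median SE, 0.064 against 0.078. This grouping is a description and was given no test. Without Lats1/2 KO replicate 1 Eif3c and Eif3g passed, and without Lats1/2 KO replicate 2 Eif3c did. Without control replicate 1 Eif3h was added (adjusted p = 0.0445 by limma), and without control replicate 2 Eif3i (0.0776) and Eif3d (0.0790) were lost. With no filter on low values both were lost too (0.0727 for Eif3i and 0.0801 for Eif3d), which left 4 eIF3 calls.

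**Figure D4:**
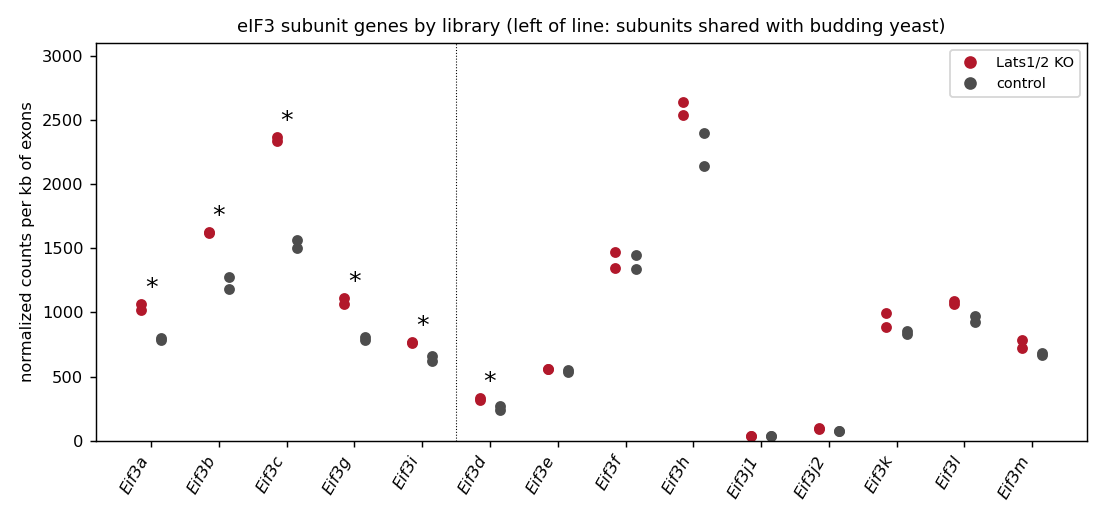
Normalized counts per kb of merged exons for each eIF3 subunit gene, with 1 point per library, Lats1/2 KO left of control. Asterisks mark genes higher in Lats1/2 KO at an adjusted p under 0.05 by limma. The dotted line sets apart the 5 subunits shared with budding yeast, a grouping made after the values were seen and not tested. All 5 genes left of the line carry an asterisk, and of the 9 to its right Eif3d does.

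Per kb of merged exons, which puts genes of different length on 1 scale, mean levels of the eIF3 genes ran between 41.6 (Eif3j1) and 2589 (Eif3h) normalized counts per kb in Lats1/2 KO, and between 38.0 and 2268 for the same genes in controls. Eif3c stood at 2351 per kb in Lats1/2 KO against 1535 in controls. Among eIF2 genes the levels per kb were 633 for Eif2s2, 533 for Eif2s1 and 271 for Eif2s3x in Lats1/2 KO, against 344, 370.4 and 188 in controls. Those of eIF2B ran between 52.1 (Eif2b3) and 859.7 (Eif2b5) in Lats1/2 KO, and between 36.8 and 615 for the same genes in controls. Merged exons include every annotated isoform, so genes with long minor isoforms have low values on this scale.

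The eIF4 group, which binds the cap and unwinds the leader, was higher in 3 of 11 genes, beside 15.2% of all tested genes. Its median log2 change was 0.22. Eif4g1, the main scaffold of the cap-binding assembly (ENSMUSG00000045983, chromosome 16, 20668313 to 20692884), had 19140 and 19296 in Lats1/2 KO against 15530 and 15297 in controls. It rose 1.25-fold (log2 change 0.32 ± 0.07 SE, adjusted p = 0.0225 by limma) with no overlap of the groups. Eif4e2, a cap-binding protein known for repressing translation, had 3881 and 3942 in Lats1/2 KO against 3117 and 3089 in controls and rose 1.26-fold (adjusted p = 0.0130 by limma). Eif4a3, the helicase of the exon junction complex, had 1877 and 2098 in Lats1/2 KO against 1572 and 1633 in controls and rose 1.24-fold (adjusted p = 0.0396 by limma). Without Lats1/2 KO replicate 1 or 2, 0 of the 3 passed, with adjusted p by limma of 0.126 and 0.139 for Eif4g1, 0.0860 and 0.0996 for Eif4e2, and 0.0765 and 0.209 for Eif4a3. Eif4a3 was also lost without control replicate 1 (0.0898), without control replicate 2 (0.0570) and with no filter on low values (0.0840).

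Eif4e, the main cap-binding protein, had 2212 and 2227 in Lats1/2 KO against 1864 and 2090 in controls, with a log2 change of 0.17 and a 95% interval of -0.03 to 0.36 (adjusted p = 0.163 by limma). Eif4e3 had 255 and 229 in Lats1/2 KO against 196 and 182 in controls (log2 change 0.36, adjusted p = 0.0942 by limma). Both Lats1/2 KO libraries lay above both controls in each of these genes, as they did in 34.9% of all tested genes. The helicase paralogs had estimates of opposite sign that did not pass, with Eif4a1 at 9414 and 9407 in Lats1/2 KO against 6992 and 8560 in controls and Eif4a2 at 7268 and 6917 in Lats1/2 KO against 7539 and 8161 in controls. Their ratio, Eif4a1 to Eif4a2, was 1.30 and 1.36 in Lats1/2 KO and 0.93 and 1.05 in controls. Eif4a1 passed without control replicate 2 (log2 change 0.43, adjusted p = 0.0113 by limma), and 24.2% of its 50-base stretches are shared with the pseudogene Eif4a-ps4. Eif4g2, a relative of eIF4G that lacks the binding site for eIF4E, had the highest count of the group, 31674 and 32101 in Lats1/2 KO against 31441 and 34217 in controls, with overlapping groups. Eif4g3 had 2311 and 2367 in Lats1/2 KO against 2590 and 2436 in controls (log2 change -0.10, 95% interval -0.27 to 0.06). Eif4b, which stimulates the helicase, had 8905 and 9140 in Lats1/2 KO against 7921 and 7586 in controls and missed the threshold (log2 change 0.22, adjusted p = 0.0560 by limma, and 0.0490 with a minimum of 50).

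Among the proteins that bind eIF4E outside that assembly, Eif4ebp1 had the second largest log2 change of all members. Eif4ebp1, a translational repressor inactivated by mTORC1 phosphorylation (ENSMUSG00000031490, chromosome 8, 27260329 to 27276674), had 1373 and 1357 in Lats1/2 KO against 799 and 709 in controls. Its mean was 1365 ± 11.2 in Lats1/2 KO and 754 ± 64.0 in controls (SD, n = 2 each), a 1.81-fold rise (log2 change 0.86 ± 0.09 SE, adjusted p = 0.00240 by limma). Its paralog Eif4ebp2 had 5210 and 5096 in Lats1/2 KO against 4818 and 4631 in controls, with a log2 change of 0.13 and a 95% interval of -0.03 to 0.28 (adjusted p = 0.185 by limma). Eif4ebp3, with 13.0 and 9.94 in Lats1/2 KO against 2.07 and 4.57 in controls, lay just outside the level rule, and the pseudogene Eif5al3-ps, with 23.1 and 17.2 in Lats1/2 KO against 10.4 and 12.6 in controls, lay just inside it. The ratio of Eif4ebp1 to Eif4e counts was 0.62 and 0.61 in Lats1/2 KO and 0.43 and 0.34 in controls. Eif4enif1, which carries eIF4E into the nucleus, had 1341 and 1263 in Lats1/2 KO against 1154 and 1201 in controls (log2 change 0.14, adjusted p = 0.191 by limma).

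Of the 7 elongation factor genes 1 was higher, a share of 14.3% near the 15.2% of all tested genes. Their median log2 change was 0.11. Eef1d, a subunit of the exchange factor of eEF1A (ENSMUSG00000055762, chromosome 15, 75894205 to 75909556), had 2915 and 3026 in Lats1/2 KO against 2356 and 2261 in controls. It rose 1.29-fold (log2 change 0.36 ± 0.06 SE, adjusted p = 0.0128 by limma), and missed the threshold without Lats1/2 KO replicate 1 (0.0723) or 2 (0.0987). Its exons overlap those of Naprt on the same strand over 4.27% of their length, a gene that was itself lower, with 1468 and 1550 in Lats1/2 KO against 3020 and 2262 in controls. Eef1a1, which delivers aminoacyl-tRNA and had the highest count of all members, had 79400 and 83943 in Lats1/2 KO against 71362 and 66279 in controls. The groups did not overlap, but the log2 change of 0.25 had a 95% interval of -0.01 to 0.51 (adjusted p = 0.138 by limma), while DESeq2 on the recovered reads called it (0.0353). Of its 50-base stretches, 40.4% occur in other genes. Eef1a2, its paralog of muscle and nerve, had 35.2 and 29.8 in Lats1/2 KO against 49.7 and 52.6 in controls (log2 change -0.64, adjusted p = 0.0893 by limma). The sums of nerve and glia markers were lower in Lats1/2 KO too, and their part in this value was not tested.

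Eef2, the translocase, had 39546 and 39672 in Lats1/2 KO against 38599 and 32267 in controls, with a log2 change of 0.17 and a 95% interval of -0.11 to 0.44. Eef1b2, an exchange factor subunit, had 8486 and 8752 in Lats1/2 KO against 9133 and 7587 in controls. Eef1g, a structural subunit of the same complex, had 5869 and 6004 in Lats1/2 KO against 6279 and 4851 in controls. Of the 50-base stretches of Eef1g, 44.2% occur in other genes. In Eef1b2 and Eef1g the Lats1/2 KO libraries lay between the controls, and control replicate 2 was the lowest library for all 3 genes. Eef1g passed without control replicate 1 (log2 change 0.29, adjusted p = 0.0350 by limma) and had a log2 change of -0.081 without control replicate 2. Eef1e1, a protein of the tRNA synthetase complex despite its name, had a log2 change of 0.08 (adjusted p = 0.577 by limma).

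Of 7 relatives and modifiers of these factors 1 was called, a share of 14.3% near the 15.2% of all tested genes that were higher. This was Eif5a, which carries the amino acid hypusine and relieves stalled elongation. It had 9760 and 10368 in Lats1/2 KO against 7842 and 7157 in controls and rose 1.34-fold (log2 change 0.43 ± 0.08 SE, adjusted p = 0.0143 by limma, 0.0661 and 0.100 without Lats1/2 KO replicates 1 and 2). Its paralog Eif5a2 had 562 and 412 in Lats1/2 KO against 298 and 374 in controls (log2 change 0.53, adjusted p = 0.0941 by limma). Eef2k, the kinase that inactivates eEF2, had 505 and 614 in Lats1/2 KO against 624 and 613 in controls, with overlapping groups. The 4 methyltransferase genes for eEF1A and eEF2 had log2 changes between -0.05 (Eef1akmt2) and 0.33 (Eef1akmt4) and did not pass. The 4 pseudogenes had 10.4 to 130 normalized counts in any library and 0 calls.

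**Figure D5:**
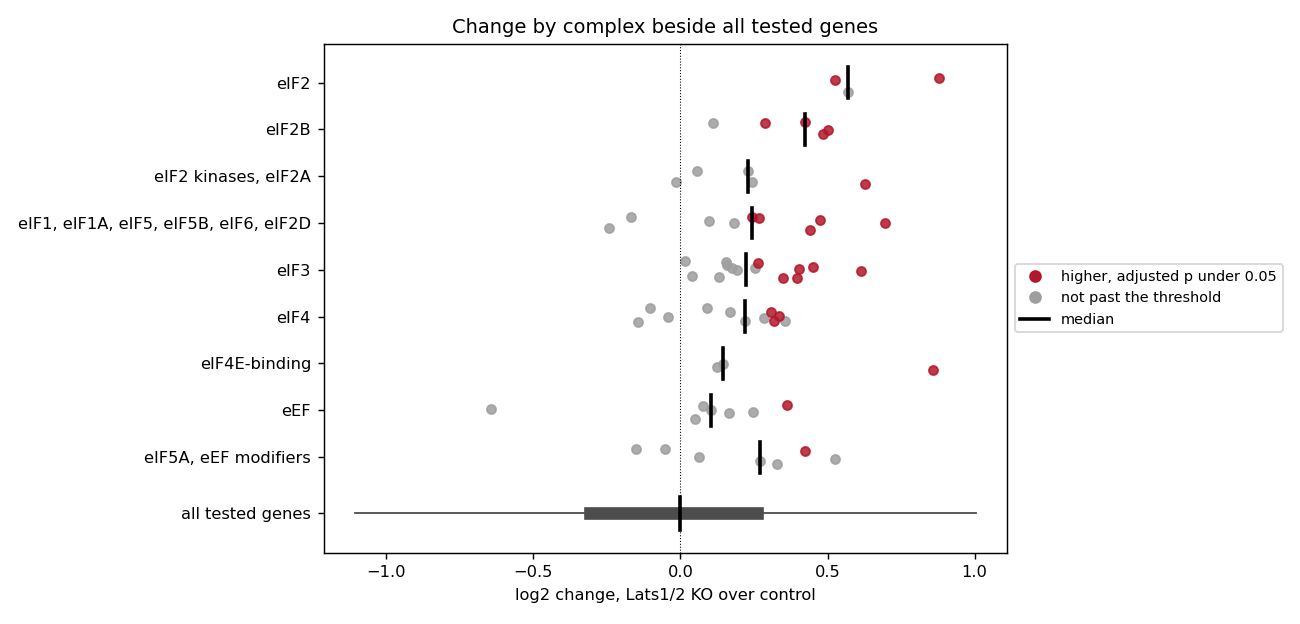
Log2 change of each translation factor gene, Lats1/2 KO over control, by complex, with the median of each as a black line. The lowest row gives all 16415 tested genes as the middle 50% (thick bar) and the middle 90% (thin line). Medians are 0.57 for eIF2, 0.42 for eIF2B, 0.22 for eIF3 and eIF4 and 0.11 for eEF.

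By complex, the members called higher were 2 of 3 for eIF2, 4 of 5 for eIF2B, 6 of 14 for eIF3, 3 of 11 for eIF4 and 1 of 7 for eEF, beside 15.2% of all tested genes. The median SE was 0.10 on the log2 scale for the eEF genes, against 0.07 for eIF3. Differences between the complexes were not tested.

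Partners of these factors outside the name rule were counted in 6 lists, to be read beside the 15.2% of all tested genes that were higher and the 12.3% that were lower. Of 15 poly(A)-binding and eIF4F partners 3 were higher and 2 lower, shares near those of all tested genes, with a median log2 change of -0.00. Pabpc4, a poly(A)-binding protein, had 1022 and 1081 in Lats1/2 KO against 738 and 663 in controls and rose 1.50-fold (adjusted p = 0.00805 by limma). Larp1, a regulator of mRNAs for the translation machinery, rose 1.25-fold (adjusted p = 0.0179 by limma). Paip1, which couples the poly(A)-binding protein to eIF4A, fell to 2179 and 2312 in Lats1/2 KO, against 2740 and 2952 in controls (log2 change -0.34, adjusted p = 0.0222 by limma).

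On the eIF2 phosphorylation axis 4 of 14 tested genes were higher and 1 lower, with a median log2 change of 0.16. Ppp1r15a, the subunit that brings a phosphatase to eIF2 alpha, had 380.3 and 479 in Lats1/2 KO against 202 and 179 in controls (log2 change 1.16 ± 0.15 SE, adjusted p = 0.00543 by limma). Trib3, a pseudokinase gene activated by ATF4, had 390.4 and 410.2 in Lats1/2 KO against 44.5 and 97.2 in controls (log2 change 2.59 ± 0.36 SE, adjusted p = 0.00636 by limma). Impact, an inhibitor of GCN2, rose 1.41-fold (adjusted p = 0.0201 by limma). Atf4 itself, named here after its values were seen, had 4985 and 5327 in Lats1/2 KO against 4277 and 4795 in controls and did not pass (log2 change 0.19, adjusted p = 0.147 by limma). Ddit3 had 1045 and 989 in Lats1/2 KO against 750 and 1072 in controls and did not pass either (adjusted p = 0.474 by limma). The 1 lower gene was Mcts1 (log2 change -0.26, adjusted p = 0.0446 by limma).

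Of 18 tested genes of the mTORC1 axis 3 were higher and 1 lower, a share of 16.7% higher that is near the 15.2% of all tested genes, with a median log2 change of 0.06. Ddit4, a stress-induced inhibitor of mTORC1, fell to 325 and 481 in Lats1/2 KO, against 890.2 and 1207 in controls (log2 change -1.39 ± 0.23 SE, adjusted p = 0.0107 by limma). Rraga and Rheb, GTPases that recruit and activate mTORC1, rose 1.35-fold and 1.28-fold (adjusted p = 0.00974 and 0.0190 by limma). The other higher gene was Akt1s1, whose product restrains mTORC1, and it rose 1.20-fold (adjusted p = 0.0430 by limma). The activity of mTORC1 was not measured. Termination, recycling and rescue factors were higher in 2 of 9 genes, Abce1, which splits ribosomes after termination (1.33-fold), and Pelo, which rescues stalled ones (1.69-fold). Of 9 genes of hypusine and diphthamide synthesis, which modify eIF5A and eEF2, 2 were higher, Dph6 (1.53-fold) and Dph1 (1.39-fold). Among 9 mitochondrial translation factors 0 were higher and 1 was lower, the initiation factor gene Mtif2, with 1034 and 1073 in Lats1/2 KO against 1234 and 1290 in controls (log2 change -0.26, adjusted p = 0.0445 by limma).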

How the data were processed

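RNA-seq libraries from 2 Lats1/2 KO and 2 control mouse small intestines were analysed. The submitters' processing notes name STAR, featureCounts, DESeq2 and the build GRCm38, without roles. No source used here gives a strand setting. The deposited values are counts per gene that the authors divided by 1 size factor per library (a normalized signal). Dividing each column by its smallest step gave whole reads for 100% of values, within 0.001 reads. The authors' deposited table also holds their log2 fold change, the linear fold change (ratio) and an adjusted p-value for each gene.

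Genes with a normalized count of at least 10 in at least 2 libraries (16415 of 29011) were tested, two-sided, with limma 3.58.1 (trend, R 4.3.3) on log2(value + 1), a scale that understates changes of low genes. P-values were adjusted by Benjamini-Hochberg over all tested genes, with a threshold of 0.05. Log2 changes are Lats1/2 KO over control, and each printed fold is 2 to the power of the fitted log2 change, not a ratio of group means. As alternatives, edgeR 4.0.16 and DESeq2 1.42.0 on the recovered reads called 4568 and 3877 genes in either direction, and other pseudocounts, filters and scalings were tried and each library was left out. The test was also run on simulated counts with dispersions from the trend fitted by edgeR. It called 10% of 50 genes with a true log2 change of 0.5 and 24% of 50 at -0.5. At 1 and 2 it called 80% and 98%, and it called 0.0377% of 15922 unchanged genes. Most true changes of 0.5 were thus missed in that setting, where few genes were changed. The data had 4508 calls, so the adjustment was less strict there, and the simulated shares do not carry over to the data.

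Replicate numbers follow the order of the columns and serve only as names. The labels do not say that the libraries came from separate animals, and the p-values reflect only the variation among these libraries. Xist was 64.2 and 17276 in the control libraries and Ddx3y 1906 and 1.14, so these 2 differ in chromosomal sex. Their spread is therefore not only technical, while that of the 2 Lats1/2 KO libraries, both high in Xist, may be. Sex was not balanced between the groups, and its part in the results was not tested. Exon lengths, overlaps and shared 50-base stretches come from GENCODE M21, and promoters from RefSeq. The members, gene lists and motifs were chosen with earlier results of these data known. Any member could be named, and of each pathway list outside the members at most the 3 called genes with the smallest adjusted p. Lats1 and the sex-linked genes were named as checks. Atf4, Ddit3, Mcts1, Akt1s1, Lats2, the epithelial markers and genes that overlap a member or share its sequence were named after their values were seen.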

Additional observations from a re-analysis of the deposited data

How the results depend on the processing

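Of 13 alternatives, 9 kept every library. Among those 9, members called stayed between 18 (no filter on low values, which lost Eif2b1, Eif3d, Eif3i, Eif4a3, Eif1ax and Eif5b) and 25 (a minimum of 50), with 22 by DESeq2 and 24 by edgeR, and DESeq2 called 2 eEF genes, Eef1d and Eef1a1, against 1. The 24 called members kept a positive log2 change in all 13, with a lowest value of 0.21. Leaving out 1 library at a time gave 6 to 23 members called, 6 to 23 higher and 0 to 1 lower, and 1869 to 3754 calls over all tested genes. By complex the higher counts then ran over 1 to 3 for eIF2, 0 to 3 for eIF2B, 1 to 7 for eIF3, 0 to 3 for eIF4 and 0 to 2 for eEF. Each of these fits had 1 library fewer, and those without a Lats1/2 KO library took their residual spread from the control libraries alone. The cause of the different counts was not tested. Signs turned only in members that had not passed. With 1 library left out at a time, the log2 change ran over -0.084 to 0.18 for Eef1b2, -0.015 to 0.17 for Eef1e1, -0.081 to 0.29 for Eef1g, -0.013 to 0.13 for Eif2a, -0.067 to 0.037 for Eif2ak1, -0.048 to 0.079 for Eif3f, -0.10 to 0.020 for Eif4g2 and -0.89 to 0.65 for the pseudogene Eif3s6-ps4. A group of 1 library was assumed to vary like the other group. No paired analysis was possible because the columns carry no replicate numbers of the labels. The number of libraries, 2 per group, limits the precision.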
